A study of Mus musculus with 8 samples.

Results

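The interferon-stimulated genes and the genes of major histocompatibility complex (MHC) class I antigen presentation were examined in AML12 cells, a mouse hepatocyte cell line, with and without irisin. A list of 40 genes was used, and every array probe whose transcript accession maps to one of them was taken as a member. Probes were found for 39 of the 40 genes, 50 probes in all, of 21612 genes and 39429 probes on the array. No probe matched Mx2. Irisin is a peptide cleaved from the membrane protein FNDC5, and the study asked which genes it regulates in liver cells. The 4 control samples were from cells kept for 24 h without irisin, and the 4 irisin samples from cells given 0.5 µg/ml irisin for 24 h. Both groups were AML12 cells grown in DMEM F-12 medium with fetal bovine serum, so all samples share 1 line, which derives from a mouse transgenic for transforming growth factor-α. The RNA of each sample was labeled with Cy3 and hybridized to its own one-color Agilent array.

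Interferons are secreted proteins that bind paired receptor chains on the cell surface. The receptors activate JAK kinases, which phosphorylate STAT proteins. A complex that holds STAT2 and IRF9 binds the interferon-stimulated response element (ISRE) in the promoters of antiviral genes, and STAT dimers bind the gamma-activated site (GAS). Antigen presentation is part of the same program: class I heavy chains pair with β2-microglobulin and carry peptides, pumped into the endoplasmic reticulum by the TAP transporter, to the surface of nearly every cell.

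Promoter sequence was examined first, to see which of these genes hold the letters of the ISRE. The RefSeq windows of GRCm38.p6, from 250 bases before to 50 bases after each transcription start, were available for 33 of the 40 genes. A short core of the ISRE, GAAA repeated after a gap of 2 unspecified bases, was searched on both strands, and overlapping matches were counted. These letters were present for 14 of the 33 genes (42.4%) against 1079 of 27025 genes in the table (3.99%), and 3.44% of all single promoter windows held them. By role, the letters were in 8 of 15 antiviral effectors, 2 of 2 RNA sensors, 2 of 6 transcription factors, Isg15, 1 of 5 class I genes and 0 of 4 receptors. The GAS letters TTCNNNGAA, searched in the same way, were present for 10 of the 33 genes (30.3%) against 9.55% of all genes and 8.30% of all windows. The stretches below belong to genes described in the results, and each is printed 5′ to 3′ on the strand of its gene with the matched letters in capitals. They show the ISRE letters of a transcription factor (Stat2), of 3 antiviral effectors, of Isg15 and of the class I light chain, and the GAS letters of Irf1.
Stat2, chr10:128270256-128270305, + strand: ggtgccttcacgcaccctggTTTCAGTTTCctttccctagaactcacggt
Ifit1, chr19:34640765-34640833, + strand: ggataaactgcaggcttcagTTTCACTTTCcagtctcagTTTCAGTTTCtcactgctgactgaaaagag
Bst2, chr8:71537567-71537622, - strand: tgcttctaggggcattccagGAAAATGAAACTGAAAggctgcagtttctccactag
Gbp3, chr3:142559979-142560034, + strand: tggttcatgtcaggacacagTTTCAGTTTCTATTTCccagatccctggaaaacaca
Isg15, chr4:156200855-156200916, - strand: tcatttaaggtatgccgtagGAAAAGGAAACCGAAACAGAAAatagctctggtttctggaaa
B2m, chr2:122147528-122147577, + strand: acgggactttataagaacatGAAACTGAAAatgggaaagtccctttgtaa
Irf1, chr11:53769904-53769952, + strand: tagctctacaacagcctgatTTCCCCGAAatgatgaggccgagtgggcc
Isg15 held 3 overlapping matches, Bst2 and Gbp3 held 2 overlapping matches each, and Ifit1 held 2 separate matches. A match says only that the letters are there, not that a factor binds them.

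Signals are given as log2 values after subtraction of each array's own 75th percentile, with replicates 1 to 4 in order, and a change is irisin minus control. Tests were run on probes that 1 group or both had well above background throughout. A call required a change of 1.5-fold or more together with a limma p-value under 0.05 after Benjamini-Hochberg adjustment over all 24092 tested probes. Where a gene had several tested probes, the one with the highest mean signal stood for it. The arrays of a group correlated at 0.994 or above. The 75th percentile of the signal was 472 ± 70.1 on control and 783 ± 71.6 on irisin arrays (SD, n = 4), and 59.5% to 64.0% of probes were well above background. All control arrays were on slide 1 and all irisin arrays on slide 2, so the treatment and the slide or its scan cannot be told apart. The labels do not say that replicates were separate cultures, and p-values measure the spread between these samples. All 10 hepatocyte markers, among them Alb and Hnf4a, passed the background limit on all 8 arrays. Of the 6 leukocyte markers, Cd3e (-0.51), Nkg7 (-0.49) and Siglech (-0.41) passed that limit on all 8 arrays and were lower with irisin without overlap (limma adjusted p = 0.0023, 0.00255 and 0.00499), short of 1.5-fold. Itgax did not rise clearly above background on a single array. Fewer cells of a type and less RNA per cell cannot be told apart. The summed level of the leukocyte list, nearly all of it from the Siglech probe, was 22.96 to 26.01 times the 75th percentile on control arrays and 17.63 to 20.28 on irisin arrays. Its part in the results below was not tested.

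Under the reported scaling, and by the probe that stood for each gene, no interferon-stimulated or class I gene changed past the threshold with irisin. A dimmer Nlrc5 probe that was called lower is described below. Of the 39 genes, 36 were tested, and 34 of these passed the background limit on all 8 arrays. None was called higher and none was called lower, where 0.531% of all 14309 tested genes were called higher and 10.2% were called lower. None of the 36 reached an unadjusted limma p of 0.05 in either direction, where 5.94% of all genes did so upward and 23.6% downward. In each of the 36 genes the values of the groups overlapped, whereas the groups did not overlap in 4.14% of all genes with irisin higher and in 19.6% with irisin lower. The median change was 0.03 against -0.06 for all genes, with 19 members above 0 and 17 below.

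Under the reported scaling, single changes ran from -0.43 in Irf7 to 0.25 in Gbp3, and the largest was 1.35-fold. In 33 of the 36 genes the 95% interval lay wholly inside a 1.5-fold change in either direction, and all 36 intervals held 0. The exceptions were Irf7, whose interval reached a 1.5-fold decrease, and Ifit2 and Gbp3, whose intervals reached a 1.5-fold increase. The intervals cover the spread between arrays and not the choice of processing. Of the 36 changes, 5 lay outside their reported interval after quantile normalization, 7 after cyclic loess, 10 under normexp and 9 under normexp with marked spots left out. The count at 1.5-fold or more was 2 with each of the first pair, 0 under normexp and 1 under normexp with marked spots left out. The median standard error of the members was 0.110, near that of all genes (0.104). The smallest adjusted p in the limma fit was 0.171. In the exact two-sided permutation test over the 70 assignments of the arrays, whose smallest possible p is 0.0286, the members gave p-values between 0.0571 and 0.914.

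**Figure D1:**
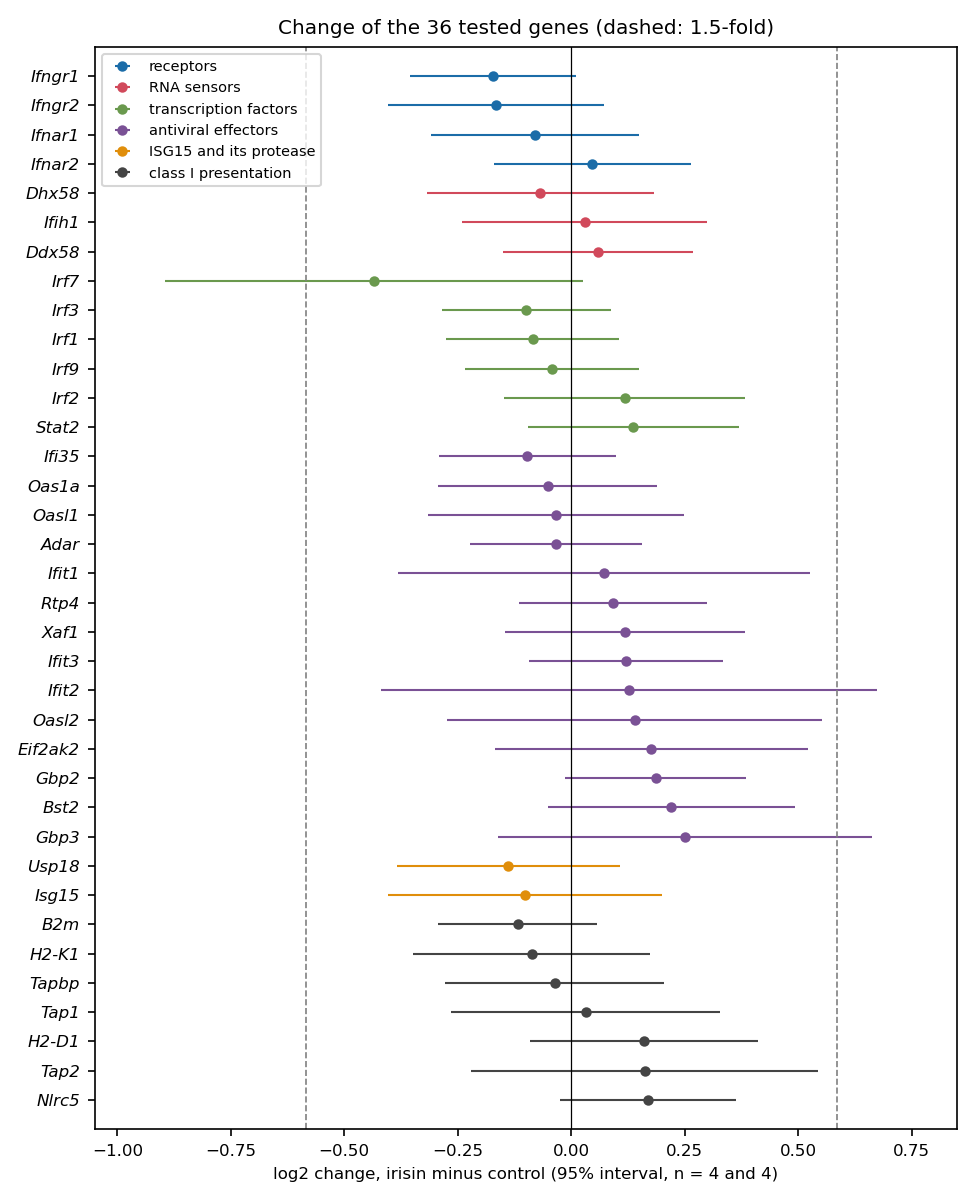
Log2 change (irisin minus control, n = 4 and 4) of the 36 tested genes, colored by role, with 95% intervals from the limma fit; dashed lines mark a 1.5-fold change. All 36 intervals cross 0, and only those of Irf7, Ifit2 and Gbp3 reach a dashed line.

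The receptors came first in the pathway, and all 4 were well above background on every array. Ifngr1, the ligand-binding chain of the interferon-γ receptor, had log2 signals of 4.91, 4.78, 4.71 and 4.87 in control cells and 4.66, 4.75, 4.57 and 4.61 in irisin-treated cells. The groups overlapped only through irisin replicate 2, which lay above control replicate 3. The change was -0.17 (SE 0.0825, 95% interval -0.35 to 0.01, limma adjusted p = 0.173). Ifnar2, the chain of the type I receptor that binds the ligand most tightly, had signals of 1.05, 0.91, 1.21 and 1.11 in control and 0.93, 1.19, 1.12 and 1.22 in irisin-treated cells. Low and high values were present in both groups, and the change was 0.05 (SE 0.0978, 95% interval -0.17 to 0.26, limma adjusted p = 0.797). The partner chains Ifnar1 and Ifngr2 had changes of -0.08 and -0.17. The median of the 4 receptors was -0.12.

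The cytosolic sensors recognize viral RNA and trigger interferon production. Ddx58, which encodes RIG-I, had log2 signals of 1.25, 1.09, 1.28 and 1.32 in control cells and 1.46, 1.31, 1.13 and 1.27 in irisin-treated cells, so the range of the irisin arrays enclosed all but 1 of the control arrays. The change was 0.06 (SE 0.094, 95% interval -0.15 to 0.27, limma adjusted p = 0.722). Dhx58, which encodes the regulator LGP2, had signals of -3.35, -3.38, -3.40 and -3.25 in control and -3.27, -3.24, -3.73 and -3.41 in irisin-treated cells. Irisin replicate 3 was the low array, and the change was -0.07 (SE 0.113, 95% interval -0.32 to 0.18, limma adjusted p = 0.733). Ifih1, which encodes MDA5, had a change of 0.03.

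Among the transcription factors, Stat2 carries the transactivation domain of the complex that binds the ISRE. Its log2 signals were 2.12, 2.05, 2.06 and 2.29 in control cells and 2.20, 2.52, 2.13 and 2.22 in irisin-treated cells. Irisin replicate 2 was the high array, the other three lay within the control range, and the change was 0.14 (SE 0.105, 95% interval -0.10 to 0.37, limma adjusted p = 0.412). Irf1, a factor induced through its GAS by interferon-γ, had signals of 3.91, 4.00, 3.99 and 4.05 in control and 3.84, 4.04, 3.78 and 3.96 in irisin-treated cells. Of the irisin arrays, replicates 1 and 3 lay below every control array, and the change was -0.09 (SE 0.0857, 95% interval -0.28 to 0.10, limma adjusted p = 0.548). Irf3, the factor that RNA sensors activate to start interferon transcription, had signals of 3.96, 3.92, 4.11 and 4.07 in control and 3.87, 4.05, 3.85 and 3.89 in irisin-treated cells. All but replicate 2 of the irisin arrays lay below the control arrays, and the change was -0.10 (SE 0.0843, 95% interval -0.29 to 0.09, limma adjusted p = 0.467).

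Irf7, which amplifies the response and is itself induced by interferon, gave the lowest change of the 36 genes. Its log2 signals were -5.62, -6.52, -6.05 and -6.03 in control cells and -6.43, -6.18, -6.35 and -7.01 in irisin-treated cells. Control replicate 2 lay below all irisin arrays but replicate 4, so the groups overlapped. The change was -0.43 (SE 0.208, 95% interval -0.90 to 0.03, limma adjusted p = 0.171). The probe was in the dimmest decile of mean signal, where the median of all tested genes was -0.60, and its sign depended on the processing, with 0.10 after quantile normalization and -0.65 under normexp with marked spots left out. In that last processing it was called lower. Irf2 and Irf9 had changes of 0.12 and -0.04, and the median of the 6 factors was -0.06.

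Of 18 antiviral effectors, 17 had a probe and 14 were tested. None was called, and 10 were above 0, 4 were below 0 and the median was 0.12, where 5151 of all 14309 tested genes were above 0. Under normexp with marked spots left out only 3 of the 14 were above 0. Bst2, or tetherin, which holds budding virions at the cell surface, had log2 signals of 3.28, 3.13, 3.33 and 3.45 in control cells and 3.26, 3.82, 3.47 and 3.52 in irisin-treated cells. All irisin arrays but replicate 1 lay above the control arrays, and the change was 0.22 (SE 0.123, 95% interval -0.05 to 0.49, limma adjusted p = 0.243). Without irisin replicate 2 it was 0.12. Ifit1, which binds viral RNA that lacks a host cap, had signals of -5.64, -6.03, -5.79 and -5.35 in control and -5.43, -5.88, -6.06 and -5.15 in irisin-treated cells. The spread within each group was far wider than the difference of 0.07 between their means (SE 0.204, 95% interval -0.38 to 0.53, limma adjusted p = 0.852).

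Gbp3, an interferon-inducible GTPase that coats intracellular pathogens, gave the highest change of the 36. Its log2 signals were -5.71, -6.24, -6.08 and -5.65 in control cells and -5.22, -6.05, -5.62 and -5.79 in irisin-treated cells. Of the irisin arrays, replicates 1 and 3 lay above every control array, and the other two lay inside the control range. The change was 0.25 (SE 0.186, 95% interval -0.16 to 0.66, limma adjusted p = 0.395). This dim probe also took its sign and call from the processing: it was called higher at 0.70 after quantile normalization and 0.71 after cyclic loess, and was at -0.49 under normexp with marked spots left out. Ifi35, an interferon-induced leucine zipper protein, had signals of 1.21, 1.16, 1.21 and 1.11 in control and 1.15, 1.17, 0.88 and 1.10 in irisin-treated cells. Irisin replicate 3 was the low array, and the change was -0.10 (SE 0.088, 95% interval -0.29 to 0.10, limma adjusted p = 0.501).

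Of the remaining effectors, the double-stranded RNA kinase Eif2ak2 had a change of 0.18, Gbp2 of 0.19, Oasl2 of 0.14, Ifit2 of 0.13, Ifit3 of 0.12, Xaf1 of 0.12 and Rtp4 of 0.09. The editing enzyme Adar, Oas1a and Oasl1 lay at -0.03, -0.05 and -0.03. None of these genes passed the test. Ifit2 was at 0.41 without irisin replicate 2, and Eif2ak2 was at 0.33 without that array, and neither was called. Oas2, Rsad2 and Ifi44 were not tested. Oas2, a synthetase of the second messenger that activates RNase L, was well above background on 2 control arrays and 1 irisin array. Rsad2, or viperin, was so on 0 control arrays and 1 irisin array, and Ifi44 on 1 control array and 0 irisin arrays.

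ISG15 is a ubiquitin-like protein that is attached to other proteins, and Usp18 encodes the protease that removes it. Isg15 had log2 signals of 0.30, 0.19, 0.30 and 0.59 in control cells and 0.00, 0.56, 0.08 and 0.34 in irisin-treated cells. Irisin replicates 1 and 3 lay below all control arrays and replicate 2 close to the highest of them, with a change of -0.10 (SE 0.136, 95% interval -0.40 to 0.20, limma adjusted p = 0.665). Usp18 had signals of -3.58, -3.40, -3.36 and -3.26 in control and -3.59, -3.50, -3.75 and -3.31 in irisin-treated cells. The groups overlapped over most of their range, and the change was -0.14 (SE 0.111, 95% interval -0.38 to 0.11, limma adjusted p = 0.431).

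**Figure D2:**
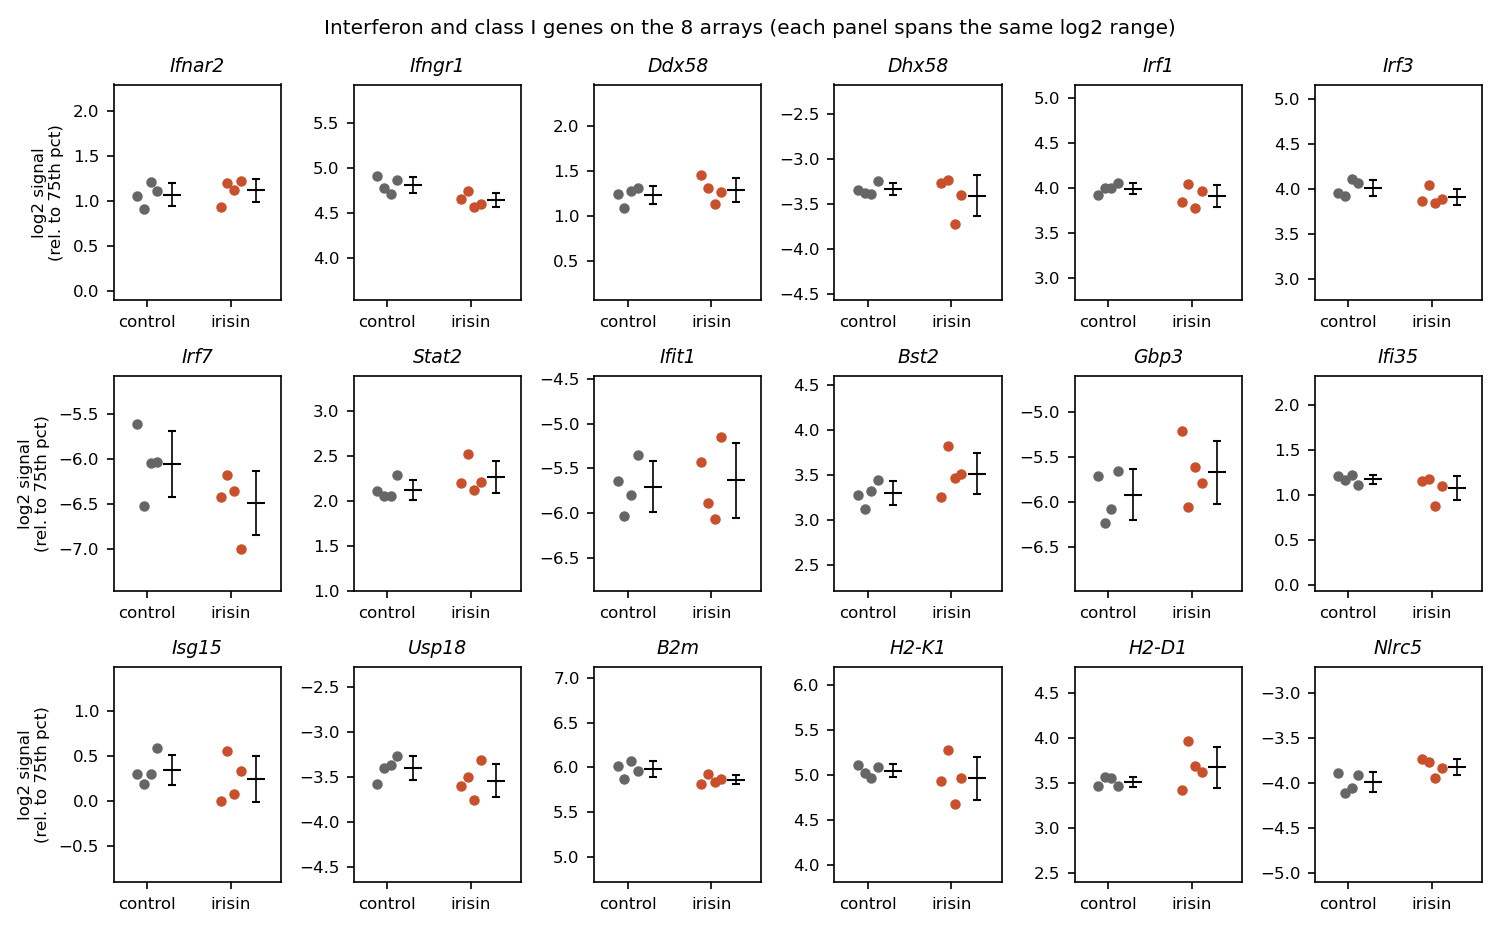
Log2 signal, scaled to the 75th percentile, for 18 genes on the 4 control (gray) and 4 irisin arrays (orange), points in replicate order; black marks give mean and SD, and every panel spans the same number of log2 units. The points of the groups overlap in each of the 18 panels.

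In class I presentation, all 7 genes were well above background on every array, with a median change of 0.03, 4 genes above 0 and 3 below. B2m, the light chain shared by all class I molecules, had log2 signals of 6.02, 5.87, 6.08 and 5.96 in control cells and 5.82, 5.93, 5.84 and 5.87 in irisin-treated cells. The irisin arrays lay at or below the control arrays apart from replicate 2, which lay above control replicate 2. The change was -0.12 (SE 0.0787, 95% interval -0.29 to 0.06, limma adjusted p = 0.339), the smallest standard error of the 36 genes. After quantile normalization the change of B2m was 0.15.

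The heavy chains H2-K1 and H2-D1 present the peptides, and belong to a family of similar genes whose probes may share transcripts. H2-K1 had log2 signals of 5.11, 5.02, 4.96 and 5.09 in control cells and 4.93, 5.27, 4.68 and 4.96 in irisin-treated cells. The irisin arrays ranged beyond the control arrays on both sides, and the change was -0.09 (SE 0.118, 95% interval -0.35 to 0.17, limma adjusted p = 0.67). H2-D1 had signals of 3.46, 3.57, 3.55 and 3.46 in control and 3.41, 3.97, 3.68 and 3.62 in irisin-treated cells. All irisin arrays but replicate 1 lay above the control arrays, and the change was 0.16 (SE 0.113, 95% interval -0.09 to 0.41, limma adjusted p = 0.369). Irisin replicate 2 was the highest irisin array in both heavy chains.

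Nlrc5 encodes the transactivator of class I genes. Its main probe had log2 signals of -3.88, -4.11, -4.05 and -3.90 in control cells and -3.73, -3.77, -3.94 and -3.83 in irisin-treated cells, with a change of 0.17 (SE 0.0874, 95% interval -0.02 to 0.36, limma adjusted p = 0.205). Only irisin replicate 3 reached down into the control values. A dimmer probe of the same gene went the other way, with signals of -5.46, -5.64, -5.13 and -5.14 in control and -6.33, -6.17, -6.27 and -5.69 in irisin-treated cells. Every irisin array lay below every control array there, and the probe fell by 0.77 on the log2 scale (SE 0.162, limma adjusted p = 0.00491, exact permutation p = 0.0286, the smallest the design allows). It was the single called probe of the 45 tested member probes, where 11.7% of all tested probes were called lower and 0.714% higher. The probe lay in decile 2 of mean signal, counted from the dimmest. In that decile 38.3% of all tested genes were called lower and their median change was -0.39. The call was lost after quantile normalization (-0.34) and cyclic loess (-0.32), where the main probe was at 0.35 and 0.38 (limma adjusted p = 0.0113 and 0.011). Under normexp with marked spots left out the main probe turned to -0.22 and the dimmer probe stayed called at -0.65. The peptide transporter chains Tap1 and Tap2 and the loading factor Tapbp had changes of 0.03, 0.16 and -0.04.

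Probes of 1 gene could be compared in 8 genes with more than 1 tested probe. A dimmer Xaf1 probe, chosen for mention after its values were seen, had signals of -5.44, -5.55, -5.04 and -5.31 in control and -5.70, -5.59, -5.78 and -5.61 in irisin-treated cells. The groups did not overlap, with a change of -0.34 (SE 0.113, limma adjusted p = 0.054), while the main Xaf1 probe was at 0.12. The dimmer probe lay in decile 2 of mean signal, counted from the dimmest, where the median of all tested genes was -0.39. Other second probes were at 0.11 for Isg15, 0.05 for H2-K1, -0.12 for Ddx58, -0.13 for Adar and -0.01 for Oas1a, and both further Ifnar1 probes were not called (0.06 and -0.23).

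Probe brightness was set beside the changes because the change of all genes varied with it. In the dimmest 3 deciles of mean signal the median of all tested genes was -0.37, and 37.3% of 3362 genes were called lower. The 8 members found there were Irf7, Ifit1, Ifit2, Ifit3, Oasl2, Gbp3, Tap1 and Nlrc5. Their median was 0.12, 7 of 8 were above 0, against 21.4% of all genes there, and 0 were called. This position depended on the processing: the median of the 8 was 0.37 after quantile normalization and 0.40 after cyclic loess, with all 8 above 0, and -0.49 with 0 of 8 above 0 under normexp with marked spots left out. In the other 7 deciles, where 1.89% of all genes were called lower and 0.512% higher, the 28 members had a median of -0.04 beside -0.04 for all genes.

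**Figure D3:**
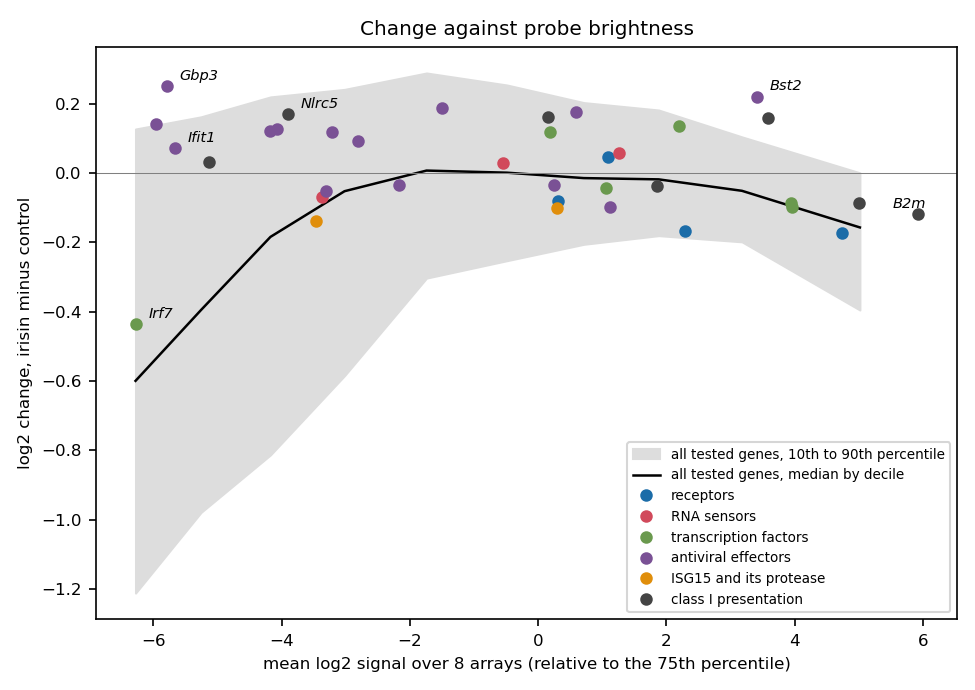
Log2 change (irisin minus control) against mean log2 signal over the 8 arrays; the line and gray band give the median and the 10th to 90th percentile of all 14309 tested genes by decile of signal, and points are the 36 tested members colored by role. The median of all genes falls to -0.60 in the dimmest decile, and 7 of the 8 members in the dimmest 3 deciles lie above 0.

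The promoter letters were then set against the changes. The 13 tested members with the ISRE letters had a median change of 0.12 with 10 above 0, ranging from -0.12 in B2m to 0.25 in Gbp3. The 18 tested members whose windows lacked them had a median of -0.04 with 6 above 0. Both medians rest on the reported processing. Over all 412 tested genes with the letters the median was -0.04, 39.6% lay above 0, 10.4% were called lower and 1.46% were called higher. Over the 10968 tested genes without them the median was -0.06, 35.8% lay above 0, 9.78% were called lower and 0.465% higher. No member of either set was called.

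Other genes of the interferon pathway were counted from 4 further lists. Of 99 genes, 91 had a probe and 75 were tested. None was called higher and 5 (6.67%) were called lower, where 0.531% of all tested genes were called higher and 10.2% lower. The median was 0.00. An unadjusted limma p under 0.05 was reached by 6 of the 75 upward and 10 downward, where 5.94% of all genes did so upward and 23.6% downward. Of the interferon ligands, 10 had a probe and 4 were tested. Ifnb1, the early type I interferon, and Ifng, the type II interferon, stayed near background on all 8 arrays. The probes of Ifna1 (-0.62), Ifna5 (-0.70) and Ifnl3 (-0.82) were called lower, with limma adjusted p-values of 0.00274, 0.000624 and 0.000976. After quantile normalization and cyclic loess only Ifnl3 stayed called (-0.73 and -0.69), with Ifna1 at -0.38 and -0.35 and Ifna5 at -0.48 and -0.45. Ifna1 was also not called without control replicate 1 (-0.51) or irisin replicate 4 (-0.58).

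Ifnl3, a type III interferon, had log2 signals of -2.70, -2.74, -2.58 and -2.48 in control cells and -3.75, -3.37, -3.55 and -3.14 in irisin-treated cells, with no overlap. A dimmer Ifnl3 probe, in decile 2 of mean signal, was also called lower (-0.84, limma adjusted p = 0.00438). The interferon-α genes are near-identical copies, so the gene read by each of their probes is uncertain. These ligand probes were dim. Ifna1 and Ifna5 lay in the dimmest 3 deciles, where 37.3% of all genes were called lower. The main Ifnl3 probe lay in the next decile, where 9.94% were called lower.

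Of 20 tested signalling genes none was called. Jak1 and Tyk2, the receptor kinases, were at 0.14 (limma adjusted p = 0.432) and -0.31 (limma adjusted p = 0.161). The kinases that phosphorylate IRF3 passed the adjusted p without the fold, Tbk1 at 0.44 (limma adjusted p = 0.0336) and Ikbke at 0.34 (limma adjusted p = 0.0497). Tbk1 had log2 signals of -1.17, -0.86, -1.01 and -1.12 in control cells and -0.46, -0.89, -0.32 and -0.75 in irisin-treated cells, overlapping through irisin replicate 2. Over all genes, 2.65% passed the adjusted p alone upward and 17.9% downward.

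Among 33 tested further interferon-stimulated genes, 2 were called, both lower and in the dimmest decile of signal, where 50.1% of all genes were called lower. They were the GTPases Gbp5 (-1.22, limma adjusted p = 0.0001) and Tgtp1 (-0.69, limma adjusted p = 0.00203). After quantile normalization and cyclic loess Gbp5 stayed called (-0.71 and -0.72) and Tgtp1 did not (-0.22 in both). Gbp6 (0.55) and Parp12 (0.40) passed the adjusted p upward and Iigp1 (-0.43) and Sp100 (-0.49) downward, each without reaching the fold. A second tested Gbp6 probe was at -0.12 (limma adjusted p = 0.627). The main Dtx3l probe was at -0.14, while a second one in the dimmest decile was called lower (-0.65, limma adjusted p = 0.00267). After quantile normalization and cyclic loess the main Gbp6 probe was called higher (0.71 and 0.74), and Sp100 was at -0.13 and -0.085. Under normexp with marked spots left out, Gbp6 was at -0.06 and Sp100 was called lower at -0.62. Of 18 tested genes of antigen processing and class II presentation none was called. The immunoproteasome subunit Psmb8 was at 0.02 (limma adjusted p = 0.936) and the class II chain H2-Aa stayed near background on all 8 arrays.

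Scaling moved the level of all these changes. Relative to the median of all genes, the median of the members lay 0.09 higher in the reported scaling, and between 0.02 and 0.10 higher under every other background correction and normalization between arrays. The value of 0.02 came from normexp as planned, whose fit was distorted by marked spots. With spike-in scaling the median of all genes moved to 0.51 and that of the members to 0.61. In that setting 19 members were called higher, beside 7804 of all 24092 tested probes. With no scaling the medians were 0.67 and 0.77, with 33 members called higher beside 14920 of the 24092 probes. Members are counted as genes, through their brightest probe, and no count over all genes is given for these settings. The shares of members and probes are therefore not alike.

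**Figure D4:**
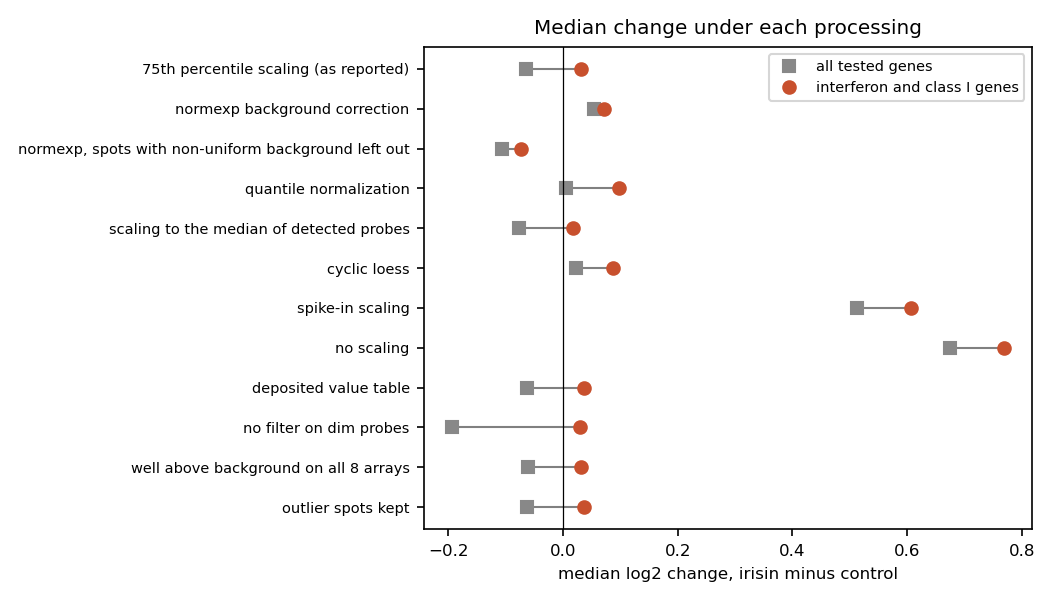
Median log2 change (irisin minus control) of the interferon and class I genes (circles) and of all tested genes (squares) under 12 ways of processing the arrays. Both medians move together to 0.61 and 0.51 with spike-in scaling and to 0.77 and 0.67 with no scaling, and lie close to 0 otherwise, apart from all genes with no filter on dim probes (-0.19).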

How the data were processed

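Total RNA from 4 control and 4 irisin-treated AML12 samples was hybridized by the authors to one-color Agilent arrays, and the scans were processed with Feature Extraction 12.0.3.1, per the file headers. The authors deposited signal intensity on a linear scale, background-subtracted and not normalized between arrays. A deposited value table equals the mean processed intensity of each probe and served as an alternative.

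Control spots and outlier spots (at most 0.463% of an array) were left out, spots of a probe were averaged, and processed signals were divided by their array's 75th percentile before the log2. No spot was saturated, and the number of arrays limits the precision. Accessions were matched to symbols through the RefSeq table of GRCm38.p6, which named 28663 of 39429 probes (72.7%). The files give positions on another build, and no probe position is printed. Using R 4.3.3, the functions lmFit and eBayes of limma 3.58.1 were applied to all 8 arrays, after a test on simulated data. Promoters were searched with Python 3.11.15.

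The members, the other lists and the rules were chosen with earlier results of these data known. Genes given with the value of every array were the called members, the brightest, the highest and the lowest change of each role, and B2m, H2-K1, H2-D1, Irf1, Stat2, Isg15 and Ifit1. Alternatives were normexp (offset 50), quantile, cyclic loess, median, spike-in and no scaling, other filters on dim probes, marked spots kept, a mean of all probes per gene, 2-fold or no fold threshold, a replicate block, an intensity trend with robust eBayes, the methods' test and each array left out. Normexp without the spots marked for non-uniform background (0 to 40 per array) was added after the data were seen. Some genes of the lists are counted but not reported by name here.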

Additional observations from a re-analysis of the deposited data

Results flagged for a closer look

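In 4 of the 72 groups of 4 arrays formed by the tested genes, 1 array lay far from the others by the Dixon criterion, which chance alone meets in about 1 of 20 groups. All were irisin arrays. Ifngr2 was at 1.90 on irisin replicate 3, where the other irisin arrays lay between 2.27 and 2.34. Ifih1 was at -0.91 on irisin replicate 2, where the others lay between -0.42 and -0.37. Irf9 was at 0.90 on irisin replicate 3, with the others between 1.08 and 1.10. Adar was at 0.15 on irisin replicate 1, with the others between 0.25 and 0.26. Without the array in question the change was -0.06 for Ifngr2, 0.16 for Ifih1 and 0.01 for Irf9, and none of these genes was called. Irisin replicate 3 was the lowest irisin array in 19 of the 36 members and in 34.2% of all genes, and irisin replicate 2 was the highest in 18 of them and in 50.5% of all genes. Whether anything sets these arrays apart was not tested.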

How the results depend on the processing

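The absence of called members held under the deposited table, median scaling, the filter on all 8 arrays, outlier spots kept, the methods' test, the intensity trend, the adjusted p alone and each array left out. Normexp as planned called no probe at all, and a 2-fold threshold can only lower a count, so neither bears on it. It did not hold in 6 settings. Quantile normalization and cyclic loess each called 1 member higher (Gbp3), where 284 and 305 of all 14309 tested genes were called higher. Spike-in scaling called 19 members higher and the unscaled values 33, where 7804 and 14920 of all 24092 tested probes were called higher. The members are counted as genes there and the background as probes, so the shares are not alike. A further 1 was called lower under normexp with marked spots left out (Irf7), and 2 with no filter on dim probes (Oas2 and Ifi44, well above background on 3 and 1 of the 8 arrays). Over all probes, 3673 and 12750 were called lower in these settings. The cause was not tested. The median of the members moved to 0.61 (spike-in scaling) and 0.77 (no scaling). With 1 array left out it ranged from -0.03 to 0.04, and 13 of the 36 members took both signs. Over 6 settings (the reported one, both normexp versions, quantile, cyclic loess and median scaling), 6 members stayed above 0, 7 stayed below 0 and 23 took both signs. Among those with both signs, Bst2, H2-D1, Ifnar2 and Stat2 were below 0 only under normexp as planned, whose fit was distorted by marked spots. Under normexp with marked spots left out, 12 members had a limma p under 0.05 with a negative change and 1 with a positive change. At the full threshold for a call, 1 member was lower in that setting and 0 higher, beside 3673 and 54 of all 24092 tested probes. No count of all genes with a limma p under 0.05 is given for that setting. The 12 and 1 members therefore have no like share beside them. Quantile normalization gave 8 positive and cyclic loess 11, with 0 negative in both. Over all 14309 tested genes, 1905 had a limma p under 0.05 upward and 2189 downward after quantile normalization. After cyclic loess these counts were 2148 and 2126.

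With no scaling, 14 members below 0 turned and were called higher. Among the 18 genes given array by array these were Dhx58 (0.67), Irf3 (0.64), Ifi35 (0.64), Isg15 (0.64), Usp18 (0.60), B2m (0.62), H2-K1 (0.65) and Irf1 (0.65).

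Over all probes, 172 were called higher and 2815 lower. The counts were 0 and 0 under normexp as planned (its fit was distorted by marked spots on irisin replicates 2 and 4), 670 and 1021 after quantile normalization, 699 and 926 after cyclic loess, 7804 and 362 under spike-in scaling, 14920 and 162 unscaled, 713 and 5196 with the adjusted p alone, and 23 and 777 at 2-fold. The count of higher calls was 54 under normexp with marked spots left out and 108 with the methods' test. With no filter 12750 were called lower. With 1 array left out, 102 (without irisin replicate 3) to 335 (without irisin replicate 2) were called higher and 2631 to 3051 lower.

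Of the other pathway genes, 0 were called higher and 5 lower. Quantile normalization called 3 and 2, where 284 and 546 of all 14309 tested genes were called higher and lower. Cyclic loess also called 3 and 2, beside 305 and 488 of all genes. Under normexp as planned 0 were called lower and their median was 0.10. With 1 array left out, 0 to 1 were called higher (1 without control replicate 3 or irisin replicate 2) and 4 to 5 lower.

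The replicate numbers did not pair the arrays, since the deviations of same-numbered arrays correlated at 0.109, -0.348, -0.125 and 0.165. With the replicate number as a block, 173 probes were called higher and 2831 lower, with 0 members.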
